A study of Mus musculus with 4 samples.

Results

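The genes described here are 8 genes of the capillary wall that handle exchange across it or build its membrane: Car4, Aqp1, Emp2, Prx, Plvap, Cav1, Cav2 and Emcn. They were chosen by name out of 31017 gene symbols, and all 8 had counts in every one of the 4 libraries. The libraries came from C57BL/6 mice and hold 2 sorted populations, P1 and P2, each from fat and from lung, with 1 library per tissue and population. Both populations were sorted as Tie2+ cells that lacked CD45 and Ter119. P1 was also CD31+ and PDGFRa-, with high CD105 and low Sca1, and P2 was PDGFRa+ and CD31-, with low CD105 and high Sca1. No age, sex, treatment or number of pooled animals is given in the sources used here. With 1 library per group there was no replicate, so no difference below carries a test, and intervals are 95% intervals for counting error alone.

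Capillaries exchange gas, water and solutes through a very thin endothelial wall. Carbonic anhydrases on the luminal face convert bicarbonate and carbon dioxide into each other, aquaporins pass water, and caveolae are small flask-shaped pits whose coat is built from caveolins. Lung capillaries hold an endothelial type known as the aerocyte, which lies along the gas-exchange surface and carries the endothelin receptor Ednrb, beside general capillary cells. Among the 8 genes, Car4 encodes a membrane-anchored carbonic anhydrase and Aqp1 a water channel. Emp2 encodes a tetraspan membrane protein of the PMP22 family, and Prx encodes periaxin, a scaffold best known from myelinating Schwann cells. Plvap encodes the protein of the diaphragms that span caveolae and fenestrae, Cav1 and Cav2 encode caveolins, and Emcn encodes endomucin, a sialomucin of the endothelial surface.

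On the mouse genome mm10, GENCODE vM21 places Car4 at chr11:84957786-84966044 on the plus strand, Aqp1 at chr6:55336432-55348555 on the plus strand and Emp2 at chr16:10281749-10313968 on the minus strand. Prx lies at chr7:27499324-27520214 on the plus strand, Plvap at chr8:71497765-71511752 on the minus strand and Emcn at chr3:137341067-137432185 on the plus strand. Cav2, at chr6:17281185-17289115, and Cav1, at chr6:17306335-17341452, are neighbours on the plus strand, with 17219 bases between them and no annotated gene starting in that gap. Annotated genes on the other strand overlap 4 members: Gm15541 overlaps Prx, Gtpbp3 overlaps Plvap, and Gm15581 overlaps both caveolin genes. The strand setting of the counting was not given in the sources used here, so counts of those 4 genes may include reads of the overlapping gene.

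The sequences upstream of Car4, Emp2 and Prx are shown because these 3 genes moved together in the single-cell comparison below. Each is the 250 bases before the RefSeq start (GRCm38.p6), written 5′ to 3′ along the gene's own strand. They span chr11:84957504-84957753 (plus), chr16:10313969-10314218 (minus) and chr7:27499074-27499323 (plus). Capitals mark the ETS core GGAAG on either strand.
Car4: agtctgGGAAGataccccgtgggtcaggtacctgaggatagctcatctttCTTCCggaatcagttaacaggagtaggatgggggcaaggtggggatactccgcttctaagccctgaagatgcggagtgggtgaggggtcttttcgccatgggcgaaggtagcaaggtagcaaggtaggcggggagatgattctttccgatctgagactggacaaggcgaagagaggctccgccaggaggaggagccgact
Emp2: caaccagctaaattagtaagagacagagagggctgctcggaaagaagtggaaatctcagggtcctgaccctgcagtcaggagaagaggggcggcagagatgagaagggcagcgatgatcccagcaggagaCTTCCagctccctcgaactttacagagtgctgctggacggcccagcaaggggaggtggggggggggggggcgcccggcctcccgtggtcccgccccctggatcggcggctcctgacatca
Prx: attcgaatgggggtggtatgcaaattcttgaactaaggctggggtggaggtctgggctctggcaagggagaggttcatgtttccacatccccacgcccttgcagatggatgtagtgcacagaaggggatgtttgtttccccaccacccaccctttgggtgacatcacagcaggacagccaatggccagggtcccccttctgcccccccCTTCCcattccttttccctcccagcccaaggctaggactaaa
The ETS core occurred 2 times upstream of Car4 and 1 time upstream of each of Emp2 and Prx. It was also present in 64.1% of all 32851 RefSeq windows of this length, so its presence does not set the 3 genes apart. The T-box core GGTGTG (16.3% of windows) and the forkhead core TAAACA (12%) were not in these 3 windows, again on either strand. Of the 8 genes, 7 had a RefSeq window, and among them only Cav2 held a T-box core.

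Barcodes were kept with at least 1000 UMIs (unique molecular identifiers, each standing for 1 captured RNA molecule), at least 500 genes and at most 10% mitochondrial UMIs. This left 1948 barcodes in the fat-labelled P1 library, 7898 in fat P2, 652 in the lung-labelled P1 library and 1436 in lung P2, with median depths of 2964, 5151.5, 1561 and 2150 UMIs. Between any pair of libraries, 0 or 1 kept barcodes were shared. The sorting markers followed the population labels: Pecam1, which encodes CD31, stood at 1757 and 1223 CPM (counts scaled to 1000000 UMIs per library) in the P1 libraries labelled fat and lung against 2.39 and 88.1 CPM in fat and lung P2. Pdgfra was the reverse, at 9.22 and 14.3 CPM in P1 against 447 and 1752 CPM in P2.

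The tissue markers went against both P1 labels. The adipose and capillary fatty acid binding protein Fabp4 had 12379 CPM in the lung-labelled P1 library and 94.2 CPM in the fat-labelled P1 library. The lung mesenchyme and endothelial factor Foxf1 had 3.58 and 716 CPM in the same order, and the surfactant gene Sftpc had 0 counts in the lung-labelled P1 library and 738 CPM in the fat-labelled P1 library. The P1 libraries are therefore named by their labels throughout, and values with the P1 libraries exchanged are given where they alter a result. The lung-labelled P1 library also stood apart from the other P1 library in its fibroblast markers, which summed to 1113 CPM there, with 10 of 10 detected, against 58.2 CPM in the fat-labelled P1 library.

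To compare shares of cells across depths, each barcode was thinned at random to 2000 UMIs. This left 1491 barcodes of the fat-labelled P1 library, 7191 of fat P2, 164 of the lung-labelled P1 library and 778 of lung P2, and 457, 707, 488 and 658 shallower barcodes were left out. Cells were also classed by markers. In the fat-labelled P1 library, 97.5% of thinned barcodes carried at least 3 of 10 endothelial markers and at most 1 of 10 fibroblast markers, and in fat P2 and lung P2 98.7% and 94.2% showed the reverse. In the lung-labelled P1 library, 67.7% of thinned barcodes carried at least 2 markers of each kind.

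The 8 genes were highest in a P1 library without exception, but not in the same one. Car4, Emp2, Prx, Cav1 and Cav2 were highest in the fat-labelled P1 library, and Aqp1, Plvap and Emcn in the lung-labelled P1 library. Fat P2 held the lowest level of every one, with intervals that overlap those of the lung-labelled P1 library for Emp2 and Prx.

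**Figure D1:**
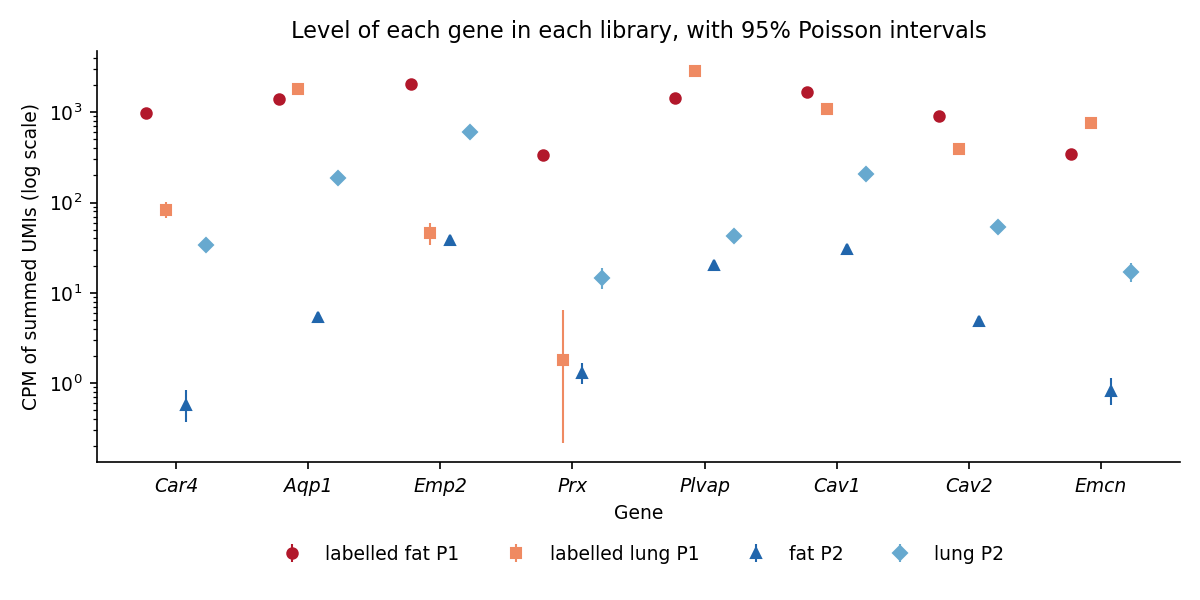
CPM of summed UMIs on a log axis for each of the 8 genes in the 4 libraries, with bars for 95% Poisson intervals that cover counting error only. Car4, Emp2 and Prx fall from 969, 2054 and 340 CPM in the fat-labelled P1 library to 83.1, 45.6 and 1.79 CPM in the lung-labelled P1 library, while the other 5 genes lie within 2.33-fold of each other between these libraries.

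Car4, the carbonic anhydrase, stood at 969 CPM in the fat-labelled P1 library, 83.1 CPM in the lung-labelled P1 library, 33.8 CPM in lung P2 and 0.573 CPM in fat P2. The intervals of these 4 levels do not overlap, and fat P2 held 25 UMIs in all. Prx followed the same steep pattern in part, with 340 CPM in the fat-labelled P1 library, 14.4 CPM in lung P2, 1.79 CPM in the lung-labelled P1 library and 1.31 CPM in fat P2. The lowest 2 Prx levels do not differ beyond counting error, since that of the lung-labelled P1 library rests on 2 UMIs. Markers of Schwann cells, where periaxin is best known, summed to 25.9 to 104 CPM in the 4 libraries. In the fat-labelled P1 library, where Prx was highest, 5 of 6 were detected and summed to 35.6 CPM. Cnp made up 27.8 CPM of this sum, and Sox10 was at 0. Their part in the Prx level was not tested.

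Emp2 ran in another order. It had 2054 CPM in the fat-labelled P1 library, 611 CPM in lung P2, 45.6 CPM in the lung-labelled P1 library and 38.0 CPM in fat P2. Lung P2 was thus the second highest for this gene, and the lowest 2 libraries overlap in their intervals. In lung P2, 73.8% of the Emp2 UMIs lay in fibroblast-marker cells, where its level was 512 CPM and 58.1% of the 733 thinned cells had a UMI. In the same cells Sftpc, a gene of alveolar epithelium, was seen in 73.5%, at 1026 CPM, and barcodes with the markers of neither class held Emp2 at 1105 CPM. Sftpc itself stood at 49586 CPM in those barcodes, and fibroblast-marker cells held 23.6% of its UMIs. RNA from other cells depends on a gene's level at its source, so the share for Sftpc cannot set a background for Emp2. Whether the fibroblast-marker cells express Emp2 was not tested.

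Plvap, the diaphragm gene, stood at 2869 CPM in the lung-labelled P1 library, 1430 CPM in the fat-labelled P1 library, 42.5 CPM in lung P2 and 20.6 CPM in fat P2. Emcn, the sialomucin, had 749, 347, 17.0 and 0.826 CPM in the same order, and Aqp1 had 1817, 1390, 188 and 5.37 CPM. All 3 genes kept 1 order of libraries, with intervals that do not overlap. Cav1 stood at 1672 CPM in the fat-labelled P1 library, 1097 CPM in the lung-labelled P1 library, 204 CPM in lung P2 and 30.9 CPM in fat P2. Cav2, its neighbour on the chromosome, had 906, 389, 54.1 and 4.86 CPM in the same order, and none of these intervals overlap either.

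In the fat-labelled P1 library, several of the genes were held by only part of the cells. If the UMIs of a gene fell evenly on all thinned cells, as a Poisson count with 1 mean, Emp2 would be seen in 97.0%, Car4 in 83.7% and Plvap in 95.2% of them. The measured shares were 53.7%, 42.7% and 67.6%, so each was held by fewer cells than an even spread would give. The variance of their UMIs over cells was 8.41, 5.22 and 3.37 times the mean, in the same order. Cav2 (80.1% measured, 84.2% if even), Emcn (45.7% and 50.6%) and Cav1 (92.7% and 96.7%) lay closer to an even spread. Aqp1 was seen in 85.9% of cells where an even spread would give 94.2%, and Prx in 35.6% where it would give 46.7%.

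In the lung-labelled P1 library the measured shares of all 8 genes lay within 4 percentage points of an even spread. Plvap was seen in 95.7% of its barcodes against 99.6% if even, Car4 in 15.2% against 16.2% and Emp2 in 7.93% against 8.74%. Prx was seen in 0 of 164 thinned barcodes. A limit of 3 counts allows up to 1.83% of barcodes with a UMI, which sets no limit on barcodes that express the gene. For Car4, Emp2 and Prx such a match says little, since so few UMIs lie near an even spread in any case. The variance of UMIs was 0.96 times the mean for Aqp1, 1.10 for Cav2, 1.11 for Emcn, 1.41 for Plvap and 1.74 for Cav1. Many barcodes of this library held markers of both kinds, so its barcodes are not treated as single cells below.

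**Figure D2:**
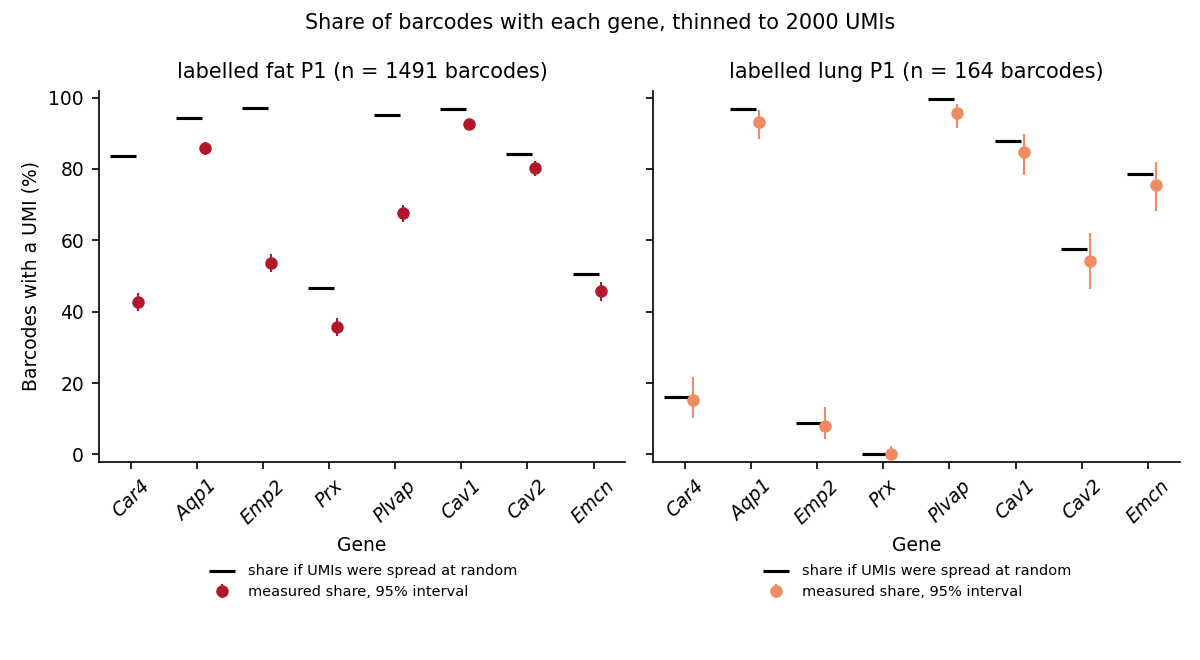
Percent of barcodes with at least 1 UMI of each gene after thinning to 2000 UMIs, in the libraries labelled fat P1 (left, n = 1491) and lung P1 (right, n = 164). Points are measured shares with 95% Clopper-Pearson intervals and black dashes are the shares a Poisson spread of the same UMIs would give: in the left panel Emp2, Car4 and Plvap fall far under their dashes (53.7% against 97.0% for Emp2), in the right panel points and dashes lie close together.

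Within fat, all 8 genes were more than 4-fold higher in P1 than in P2, where 22.5% of the 4727 genes tested differed that much in either direction. Differences are given as log2 ratios after 10 CPM was added to both levels, which shrinks those of low genes. They ran from 4.95 for Prx to 6.53 for Car4 with a median of 5.49, beside a median of 0.38 over all genes tested. The populations were sorted as CD31+ and as CD31- cells, and the endothelial markers moved with the result: 10 of 10 were at 100 CPM or more in the fat-labelled P1 library (18889 CPM summed) and 1 of 10, Ramp2, in fat P2 (278 CPM summed). In fat P2, 2 barcodes were of the endothelial-marker class, with 3.85% of the Aqp1 UMIs and 5.56% of the Emcn UMIs. Another 79 barcodes with at least 2 markers of each kind, out of 7898, held 68.8% of the Aqp1 UMIs and 80.6% of the Emcn UMIs, whereas fibroblast-marker cells held 96.7% of those of Emp2, 93.4% of those of Plvap and 90.3% of those of Cav1. In the fibroblast-marker cells of fat P2, Plvap was seen in 3.13% and Cav1 in 5.07% of 7094 thinned cells. With the P1 libraries exchanged, Emp2 and Prx were not past 4-fold, at log2 ratios of 0.21 and 0.06.

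Within lung, 7 of the 8 genes could be compared (Prx stayed under 50 CPM in both libraries) and 6 differed more than 4-fold, where 20.2% of 4791 genes did. Plvap (log2 ratio 5.78), Emcn (4.81), Aqp1 (3.21), Cav2 (2.64) and Cav1 (2.37) were higher in the lung-labelled P1 library. Emp2 was lower there, by a log2 ratio of -3.48. Car4 differed by 1.09 and did not reach 4-fold. It did, at 3.35, when endothelial-marker cells of P1 were set against fibroblast-marker cells of P2. Cell types moved with this comparison: endothelial markers, with 10 of 10 detected in both, summed to 9730.5 CPM in the lung-labelled P1 library and 762.1 CPM in lung P2. Markers of alveolar epithelium type 2 summed to 5.36 CPM, with Sftpc, Sftpb, Sftpa1, Lamp3 and Slc34a2 at 0, and to 4633 CPM with 6 of 6 detected. Their part in the differences was not tested. Prx stood 8.07-fold higher in lung P2 than in the lung-labelled P1 library, with a counting interval from 2.13 to 68.3 since the latter held 2 UMIs. With the P1 libraries exchanged, all 8 genes were higher in P1 than in lung P2. Car4 (4.48) and Prx (3.84) were past 4-fold there, and Emp2 turned from lower to higher, at 1.73, without reaching 4-fold.

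Between the P1 libraries, 3 of the 8 genes differed more than 4-fold, where 11.0% of 4605 genes did. All 3 were lower in the lung-labelled P1 library: Emp2 by a log2 ratio of -5.21, Prx by -4.89 and Car4 by -3.39. The Prx level was 190-fold apart, with a counting interval from 52.5 to 1570. The other genes split, with Emcn (1.09), Plvap (1.0) and Aqp1 (0.38) higher and Cav2 (-1.20) and Cav1 (-0.60) lower in the lung-labelled P1 library. With the libraries exchanged every sign turns, so that Emp2, Prx and Car4 are the 3 genes more than 4-fold higher in lung. Cell types moved with this comparison. Markers of alveolar epithelium type 1 summed to 1911 CPM in the fat-labelled P1 library, with 7 of 7 detected. In the lung-labelled P1 library they summed to 179 CPM, with 5 of 7 detected and Rtkn2 and Cldn18 at 0. Clic5 alone made up 821 and 110 CPM of these sums. In the fat-labelled P1 library, 26 barcodes with 3 or more UMIs of Ager, a gene of that epithelium, held 7.90% of its Emp2 UMIs, at 5384 CPM, and 0.0476% of its Car4 UMIs. Without them Emp2 stood at 1950.4 CPM, Car4 at 998 CPM and Prx at 350 CPM. These barcodes were set aside after their values had been seen.

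Between the P2 libraries, 4 of the 8 genes reached 50 CPM in one of them, and all 4 were more than 4-fold higher in lung, where 13.0% of 4323 genes differed that much. Emp2 and Aqp1 both had a log2 ratio of 3.69, Cav1 one of 2.39 and Cav2 one of 2.11. The other 4, Car4, Prx, Plvap and Emcn, were at 42.5 CPM or less in both libraries. Endothelial cells in lung P2 moved with part of this: 10 of 10 endothelial markers were detected there and summed to 762 CPM, against 278 CPM in fat P2. Of the genes past 4-fold, the 17 endothelial-marker barcodes of lung P2, 1.18% of the library, held 27.3% of the Aqp1 UMIs. They held 34.0% of those of Cav1 and 38.6% of those of Cav2, but 5.49% of those of Emp2. Another 13 barcodes with at least 2 markers of each kind held 16.7%, 20.4%, 24.8% and 10.8% in the same order. Of the genes too low to be compared, the 17 barcodes held 65.5% of the Plvap UMIs, 72.7% of the Emcn UMIs and 47.3% of the Car4 UMIs. Fibroblast-marker cells held 1 of the 131 Car4 UMIs and 1 of the 66 Emcn UMIs. In fibroblast-marker cells alone, Emp2 (3.46) and Aqp1 (3.49) stayed past 4-fold between lung and fat. Cav1 (1.47) and Cav2 (0.90) did not, and Plvap turned to -1.10.

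Emp2 and Aqp1 were spread differently over the lung P2 fibroblast-marker cells. Emp2 was seen in 426 of 733 thinned cells. Aqp1 was seen in 47, and 34 of these, each with at least 2 UMIs, held 93.1% of the 188 Aqp1 UMIs. Its level was 2574 CPM in the 34 cells and 9.30 CPM in the other 699. The genes with the highest log2 ratio in those cells were Angptl7 (4.83), Adh7 (4.45), Dner (3.84), Hmcn2 (3.84) and Wif1 (3.78), secreted, matrix or cell-surface proteins apart from the dehydrogenase Adh7. Collagen gene Col15a1 was also among the first 10 (574 against 51.5 CPM). Pecam1, Car4 and Emcn had 0 counts in the 34 cells, and the other 699 were as low, at 0.715, 0.715 and 0 CPM. Dcn, a fibroblast gene, had 2044 CPM against 1484 CPM in the rest. Pecam1 and Dcn are among the markers that set the class of these cells, so their levels were partly fixed by that choice. The cells were picked by their Aqp1 UMIs after these had been seen, so the list describes them and tests nothing.

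The cells of the fat-labelled P1 library were then split by Ednrb, the endothelin receptor gene that marks aerocytes. Of 1491 thinned cells, 412 held at least 1 Ednrb UMI and 1079 held none. Car4, Emp2 and Prx were higher and Plvap lower in cells with Ednrb, each by more than 2-fold, while Aqp1, Cav1, Cav2 and Emcn stayed within 2-fold. These 4 of 8 genes stand beside 12.1% of the 4391 genes tested that differed by 2-fold in either direction.

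Car4 had 2765 CPM in cells with Ednrb (95% Poisson interval 2652 to 2880.5) and 198 CPM in those without (180 to 218), a log2 ratio of 3.74. It was seen in 90.3% of the former and 24.5% of the latter. Emp2 had 4998 against 519 CPM, a log2 ratio of 3.24, and was seen in 94.2% and 38.2%. Prx had 772 against 140 CPM, a log2 ratio of 2.38, and was seen in 72.1% and 21.7%. Ranked by log2 ratio among 4390 genes, Car4 was the 10th highest, Emp2 the 18th and Prx the 56th. The highest 5 were Fibin (5.24), Chst1 (4.70), Tbx2 (4.14), Sirpa (4.0) and Egflam (3.99), so the carbonic anhydrase stood near the genes that differed most.

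Plvap ran the other way. It had 252 CPM in cells with Ednrb (219 to 289) and 2003 CPM in those without (1944 to 2064), a log2 ratio of -2.94, and was seen in 17.5% and 86.7%. Of all ranked genes it was the 4th lowest, after Ager (-4.40), the integrin gene Itga6 (-3.02) and the lymphatic chemokine gene Ccl21a (0 counts against 67.7 CPM), and before the phosphatase gene Ptprb (-2.79). Plvap UMIs per cell were also fewer where the gene was seen at all, with a median of 2 in cells with Ednrb and 4 in those without.

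The other 4 genes were shared by both sets of cells. Aqp1 had 1551 against 1375 CPM and was seen in 90.8% and 84.1%. Cav1 had 1318 against 1860 CPM and was seen in 371 of 412 and 1011 of 1079 cells, and Cav2 had 1056 against 871 CPM and was seen in 83.3% and 79.0%. Emcn had 411 against 329 CPM and was seen in 52.4% and 43.1%. The Poisson intervals of all 4 pairs lie apart, so the log2 ratios of 0.17, -0.49, 0.27 and 0.31 exceed counting error within this library, but without a second library their spread is not known. With cells thinned to 1000 UMIs the intervals of Aqp1 overlapped (1385 to 1624 CPM with Ednrb and 1322 to 1440.5 CPM without), and in endothelial-marker cells at that depth those of Emcn did as well. The caveolin genes thus had opposite signs, Cav1 lower and Cav2 higher in cells with Ednrb.

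**Figure D3:**
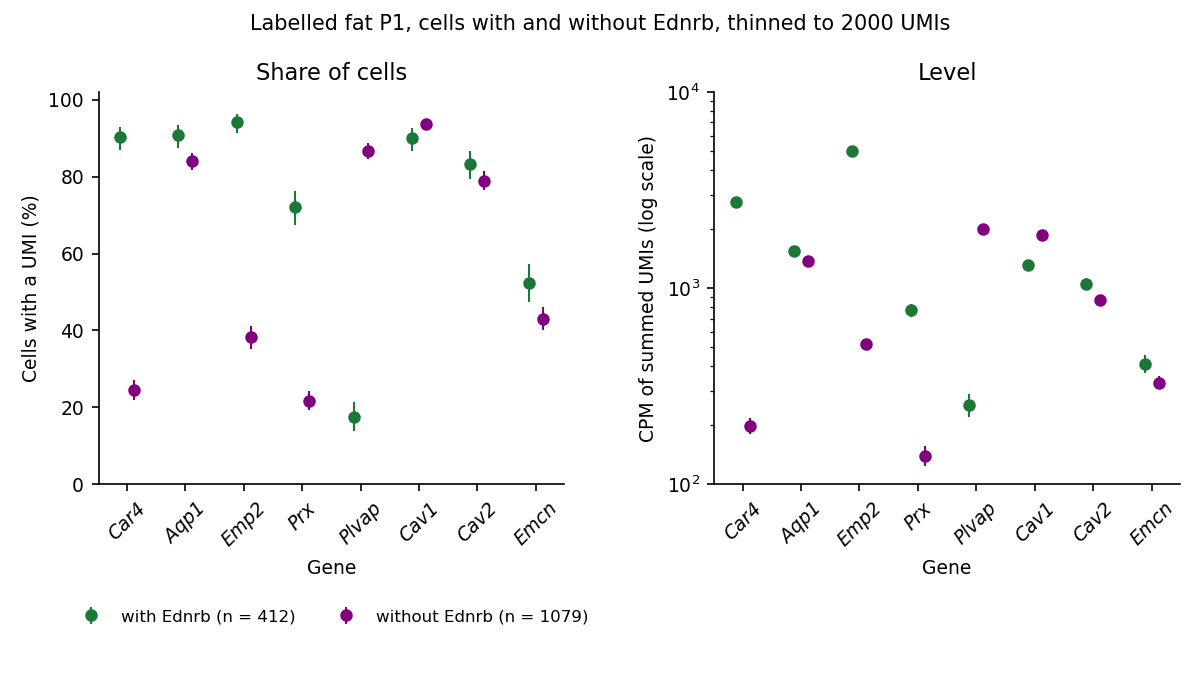
Share of cells with a UMI (left, percent, 95% Clopper-Pearson intervals) and CPM of summed UMIs (right, log axis, 95% Poisson intervals) for the 8 genes in cells of the fat-labelled P1 library with (n = 412) and without (n = 1079) an Ednrb UMI, all thinned to 2000 UMIs. Car4, Emp2 and Prx sit higher with Ednrb (90.3%, 94.2% and 72.1% of cells), Plvap sits lower (17.5%), and the other 4 genes lie close together.

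Depth and other cell types were compared between both sets. Before thinning, cells with Ednrb had a median of 4176 UMIs and those without 3311, and after it they had 1221 and 1223 genes. Mitochondrial UMIs made up a median 4.56% and 5.40%. Endothelial markers were detected 10 of 10 in both sets and summed to 19699 and 19207 CPM. Markers of alveolar epithelium type 2 summed to 143 CPM with Ednrb and 423 CPM without, with 6 of 6 detected in both. Markers of lymphatic endothelium summed to 368 CPM with Ednrb, with Prox1, Pdpn and Ccl21a at 0, and to 1094 CPM without, with 6 of 6 detected, and Lyve1 made up 263 and 897 CPM of these sums. The part of these cell types in the split was not tested. Markers of alveolar epithelium type 1 summed to 1735 and 1319 CPM, with Aqp5 and Pdpn at 0 in cells with Ednrb. Clic5 alone made up 1090 and 663 CPM of these sums, and Ager went the other way, at 6.07 and 330 CPM. In endothelial-marker cells alone, 410 with and 1044 without Ednrb, the same 4 genes were past 2-fold, with Emp2 at 5021 against 431 CPM and Car4 at 2778 against 205 CPM. Without cells of 3 or more Ager UMIs the log2 ratio of Emp2 was 3.56.

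A gene of another cell type was also seen in part of the cells of this library, and the source of its UMIs was not tested. Sftpc, a gene of alveolar epithelium, was seen in 20.9% of thinned cells with Ednrb and 26.1% of those without. In cells without Ednrb, Car4 was seen in 24.5% and Prx in 21.7%. RNA from other cells depends on each gene's level at its source, so the share for Sftpc sets no background for Car4 or Prx. Whether cells without Ednrb express these genes was not tested. In 29 thinned barcodes with the markers of neither endothelium nor fibroblasts, Car4, Aqp1, Prx, Plvap and Emcn were each seen in 0, where a limit of 3 counts allows up to 10.3% of barcodes with a UMI. Emp2 was seen in 21 of the 29, Cav1 in 18 and Cav2 in 14, and Ager in 18. Depth was the same in all of these after thinning. Over all kept barcodes, classed by their full counts, the 24 of neither class had a median of 4032.5 UMIs and the 1910 endothelial-marker cells one of 2941.5.

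Cells were then ordered by the number of Ednrb UMIs. Emp2 went from 519 CPM at 0 UMIs to 2994 CPM at 1 and 4444 CPM at 2, and lay between 5139 and 5993 CPM above that. Car4 went from 198 to 1452 and 3008 CPM and then lay between 2722 and 3284 CPM. Prx went from 140 to 464 and 786 CPM and stayed between 785 and 921 CPM. Plvap went down the same steps, from 2003 to 946 and 167 CPM, lay at 83.3 and 97.2 CPM for 3 and 4 Ednrb UMIs, and came to 27.4 CPM in the 146 cells with 5 or more. It was seen in 50.6% of the 83 cells with exactly 1 Ednrb UMI, in 14.3% of the 63 with 2 and in 4.79% of those with 5 or more. As a group, cells with a single Ednrb UMI were therefore intermediate in all 4 genes. Whether each cell was intermediate, or the group mixed high and low cells, was not tested. Aqp1 showed no such steps, lying between 1325 and 1656 CPM in all 6 sets, and Emcn lay between 329 and 521 CPM.

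**Figure D4:**
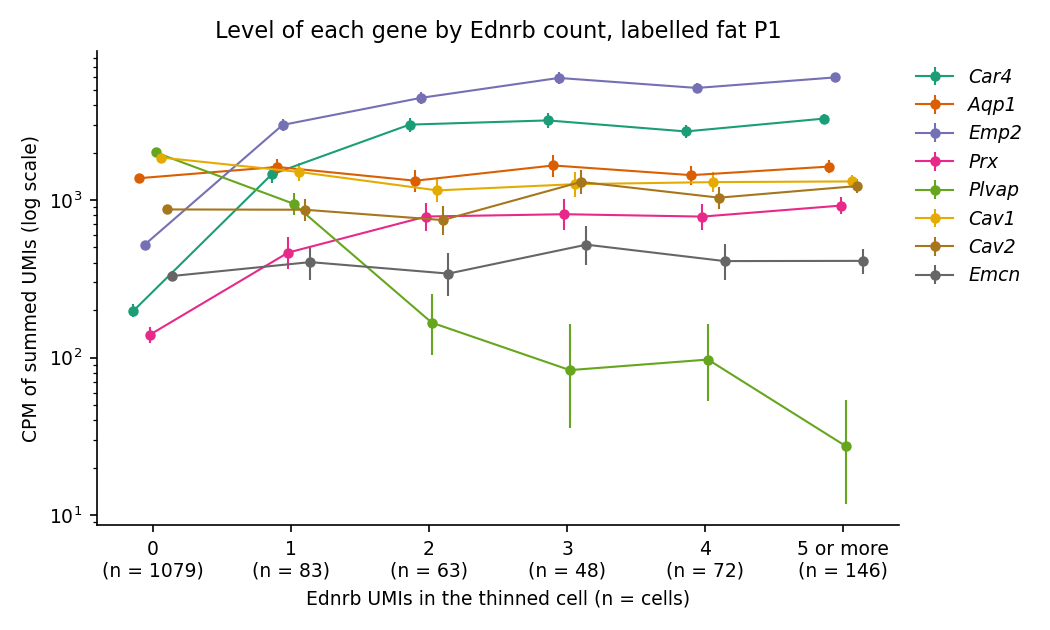
CPM of summed UMIs (log axis, 95% Poisson intervals) for the 8 genes in cells of the fat-labelled P1 library grouped by the Ednrb UMIs left after thinning to 2000, with the number of cells under each group. Emp2, Car4 and Prx climb from 0 to 2 Ednrb UMIs, with Emp2 higher again at 3 (4444 and 5948 CPM), Plvap falls from 2003 to 27.4 CPM, and Aqp1 stays between 1325 and 1656 CPM.

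Pairs of genes were compared within the 1454 endothelial-marker cells. Plvap and Ednrb excluded each other most: 338 cells (23.2%) held Ednrb alone, 935 (64.3%) Plvap alone, 72 (4.95%) both and 109 (7.50%) neither. Where Plvap was seen, Ednrb was seen in 7.15% of cells, and where it was not, in 75.6%. Plvap also parted from Car4 (27.4% with Plvap, 80.5% without), Emp2 (38.9% and 85.5%) and Prx (22.8% and 67.3%). The 3 genes on the Ednrb side went together. Emp2 was seen in 77.2% of cells with Car4 and 34.6% of cells without it, and Prx in 57.9% and 19.9%. Between Emp2 and Prx, Prx was seen in 51.2% of cells with Emp2 and 19.9% of those without.

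As a group, the 72 cells with both Ednrb and Plvap were intermediate in other genes too. Car4 was seen in 65.3% of them, against 96.2% of cells with Ednrb alone and 24.5% of cells with Plvap alone. Emp2 was at 2264, 5608 and 338 CPM in the same order. Gpihbp1, which anchors lipoprotein lipase in general capillary cells, was seen in 70.8% of them, against 11.5% and 86.1%, and Fibin in 41.7%, against 83.1% and 2.99%. Their median depth before thinning was 4055 UMIs, beside 4237.5 and 3305. Whether these barcodes hold 2 cells was not tested. Free RNA can also place a single UMI in a cell, and this too was not tested.

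Car4 outside the cells with Ednrb was mostly a single UMI. Both genes were seen in 372 endothelial-marker cells, Car4 without Ednrb in 264 and Ednrb without Car4 in 38. Of the 264 cells, 69.7% held a single Car4 UMI, and 86.7% held Plvap, as did 90.5% of the 780 cells with neither Car4 nor Ednrb. Of the 372 cells, 12.6% held Plvap. Other genes differed between the 264 and the 780 cells. Emp2 (47.0% against 33.7%), Prx (31.1% against 19.5%), Tbx2 (13.6% against 3.33%) and Fibin (7.20% against 2.31%) were seen more often in the 264. Gpihbp1 (80.3% against 84.2%) and Aplnr (45.5% against 47.7%) were seen slightly less often.

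The caveolin genes went together, though Cav1 was missing from few cells. Cav2 was seen in 82.3% of cells with Cav1 and 63.0% of the 92 cells without it. Those 92 cells also held Plvap less often (53.3% against 70.3%) and Ednrb more often (42.4% against 27.2%). Splitting the cells by Cav2, Aqp1 or Emcn moved the share of Car4, Emp2, Prx or Plvap by 10.3 percentage points at most.

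**Figure D5:**
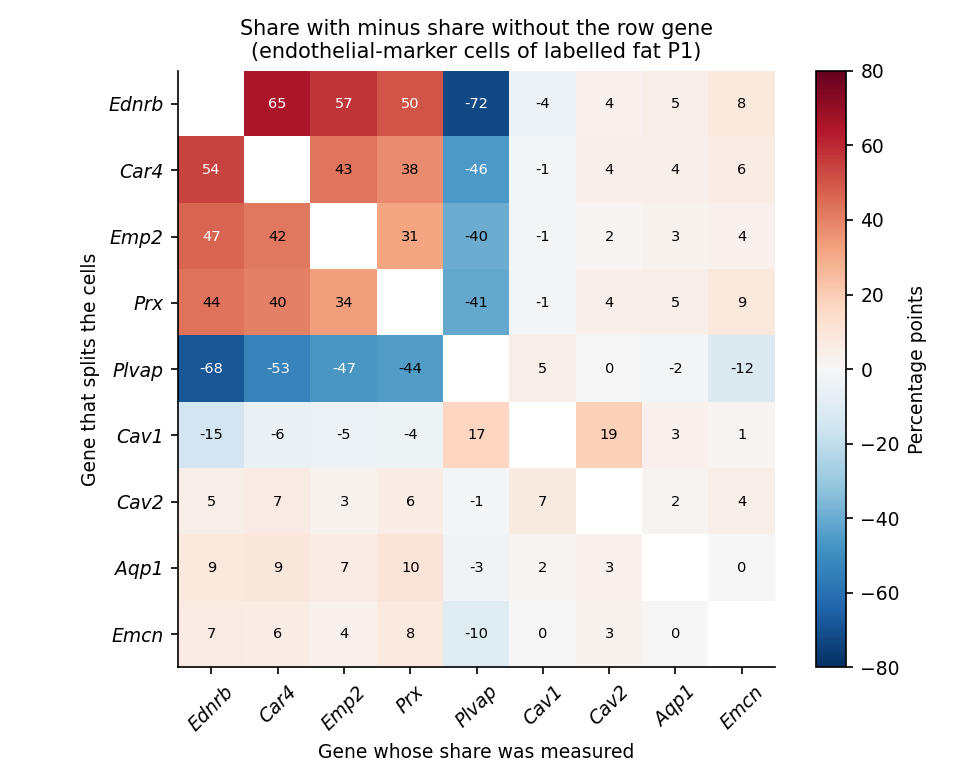
Difference in the share of cells with the column gene between cells with and without the row gene, in percentage points, over 1454 endothelial-marker cells of the fat-labelled P1 library (thinned to 2000 UMIs). Ednrb, Car4, Emp2 and Prx form a red block, and Plvap is blue against each of them in its row and column. With Cav1 as the row gene, Plvap is at 17.1 and Cav2 at 19.3 points, and the other entries for Aqp1, Cav2 and Emcn are pale.

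Genes whose UMI counts ran most alike over the same 1454 cells were ranked by Pearson correlation of log2(UMIs + 1) among 3529 genes. The cells share 1 library and the same thinned depth, so the values describe it and carry no test. Car4 ran closest to Ednrb (0.79), Emp2 (0.78) and Igfbp7 (0.77), the gene of a secreted IGF-binding protein. For Emp2 these were Igfbp7 (0.80), Ednrb (0.80) and Car4 (0.78), and for Prx Car4 (0.55), Ednrb (0.55) and Emp2 (0.53). Plvap ran closest to Ptprb (0.65), Gpihbp1 (0.55) and Cd93 (0.55). For Aqp1, Cav1, Cav2 and Emcn the highest coefficient was 0.23 or less, and no weight is put on such low values. These genes were seen in 88.0%, 93.7%, 81.1% and 46.8% of the cells. Cav1 had coefficients of like size below 0 with Emp2 (-0.22) and Ednrb (-0.21).

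The families of the 8 genes did not move as blocks with Ednrb. In the PMP22 and EMP family, Emp2 and Pmp22 (1862 against 251 CPM) were higher in cells with Ednrb, Emp3 (6.07 against 59.3 CPM) was lower and Emp1 (296 against 160 CPM) stayed within 2-fold. Of 9 tested genes of the caveola coat and neck, 1 differed by 2-fold, a share near the 12.1% of all genes tested. It was Ehd1, an ATPase of membrane trafficking, at 69.2 against 393 CPM. The coat gene Cavin2 (2165 against 1995 CPM) and the neck ATPase gene Ehd4 (2419.9 against 1957 CPM) did not. Family members past the fold are all named, a choice made after their values were seen. Among carbonic anhydrases, Car14 (15.8 against 70.0 CPM) was lower and Car2 (120 against 184 CPM) within 2-fold. Aqp1 was the 1 aquaporin of 11 that could be tested.

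Among the partners and relatives of periaxin, Ahnak (141 against 582 CPM) and the dystrophin relative Utrn (133 against 378 CPM) were lower in cells with Ednrb, so Prx was the 1 gene of 4 that was higher. Of 5 sialomucin and glycocalyx genes, Cd34 was higher (886 against 211 CPM), and Emcn, Podxl (1183 against 816 CPM), Cd164 and Sdc3 stayed within 2-fold. Of 8 genes for transport of small molecules, Slc6a6, a taurine carrier (25.5 against 126 CPM), and Abcb1a, an efflux pump (32.8 against 164 CPM), were lower. All 12 genes listed for aerocytes were higher, with a median log2 ratio of 3.49 that includes Ednrb itself, and all 10 listed for general capillary cells were lower, with a median of -2.51. Both lists were set with these data already known and are no separate evidence.

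Between the libraries the families were mixed as well. Within fat, 4 of 9 caveola genes tested were past 4-fold and all were higher in P1: Cav1, Cav2, Cavin2 (log2 ratio 4.81) and the neck ATPase gene Ehd4 (5.88). The other 5 stayed under 4-fold. These 4 of 9 stand beside the 22.5% of all genes tested. In the PMP22 and EMP family, Pmp22 followed Emp2 in the comparison of P1 libraries, at 58.1 CPM in the lung-labelled P1 library and 757 CPM in the fat-labelled P1 library, a log2 ratio of -3.49, and Emp3 went the other way, at 245 and 49.3 CPM. Both signs turn when the P1 libraries are exchanged.

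The split could not be repeated with weight elsewhere. In the lung-labelled P1 library, 42 of 164 thinned barcodes held Ednrb. Plvap was seen in 39 of the 42 and 118 of the other 122, and Car4 in 7 and 18. Ednrb itself lay at an even spread there, in 25.6% of barcodes against 25.4% if even, with a variance 0.963 times the mean. Splitting these barcodes by Ednrb therefore cannot show whether the genes part, and the barcodes are not taken as single cells. In lung P2, 21 endothelial-marker cells remained when barcodes were thinned to 1000 UMIs. Car4 was seen in 6 of the 6 with Ednrb and 5 of the 15 without, Emp2 in 6 and 8, and Plvap in 0 and 9. At 2000 UMIs, 13 such cells remained, and Plvap was seen in 2 of 5 with Ednrb and 7 of 8 without. These cells point the same way as those of the fat-labelled P1 library for Car4, Emp2 and Plvap, in numbers too few for a share.

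Over the 1491 thinned cells of the fat-labelled P1 library, a cell held a median of 5 of the 8 genes, and 20 cells held all 8. In endothelial-marker cells the median was 6 with Ednrb and 5 without. The thinned barcodes of fat P2 held a median of 0, with 84.3% holding none, and those of lung P2 a median of 1, with 28.7% holding none.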

How the data were processed

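The deposited files hold UMI counts per gene and barcode for 4 libraries made with the Chromium 3′ v3.1 kit, per the labels' protocols. Counting used Cell Ranger 3.1.0 and the genome mm10, per the submitters' processing notes. The annotation release and the strand setting are not given in the sources used here. The authors' counts were used as deposited, with rows of a shared symbol summed.

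The 8 genes and all gene lists were chosen with earlier results of these data known. Named genes were the 8 members, Ednrb, marker checks, list members at 50 CPM or more in a library, the 3 genes most alike in counts to each member, and the 5 highest and 5 lowest in the Ednrb split. CPM is the summed count of kept barcodes scaled to 1000000 UMIs. A gene was tested for a fold where either side reached 50 CPM, and called at 4-fold between libraries or 2-fold between cells, on log2(CPM + 10). These are descriptions, not significance tests, since each group is 1 library. Kept barcodes summed to 1118642 to 43599072 UMIs per library, so 3 counts equal 0.0688 to 2.68 CPM. Intervals are Poisson for counts and Clopper-Pearson for shares. Thinning used a fixed random seed. Doublets were kept in the reported values. As an alternative, the highest Scrublet scores (scanpy 1.11.5) were removed at 0.8% per 1000 barcodes. Other alternatives were TMM scaling (edgeR 4.0.16), other filters, cell classes and thinning depths, and exchange of the P1 libraries. The steps were tested on simulated data. The result of 1 marker list is not reported here.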

Additional observations from a re-analysis of the deposited data

Results flagged for a closer look

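Emp2 is singled out because its difference between the tissues ran in opposite directions in the sorted populations. It was lower in the lung-labelled P1 library than in the fat-labelled P1 library by a log2 ratio of -5.21, and higher in lung P2 than in fat P2 by 3.69, a gap of -8.91 between the ratios. With 1 library per group the gap was not tested. Both ratios are past 4-fold. With the P1 libraries exchanged, the P1 ratio is 5.21 and both populations have Emp2 higher in lung. Cav1 (-0.60 and 2.39) and Cav2 (-1.20 and 2.11) also had opposite signs, past 4-fold in P2 alone. Car4 and Prx had opposite signs too (-3.39 and 2.05 for Car4, -4.89 and 1.11 for Prx), with P2 levels too low to be tested.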

How the results depend on the processing

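The number of members past the fold stayed within 1.5 times of its reported value under every alternative for 4 of the 5 comparisons. For lung against fat in P2 it fell from 4 to 2 when fibroblast-marker cells alone were used, and to 2 with the mean over cells of per-cell CPM. The share of all genes past 4-fold in these settings is not given here. Exchanging the P1 libraries turned the sign of 4 called ratios: Emp2 to 1.73 for P1 against P2 in lung, and Car4, Emp2 and Prx to 3.39, 5.21 and 4.89 for lung against fat in P1. No other alternative turned a called ratio. The count for the Ednrb split was 4, with 3 higher and 1 lower, under all 11 alternatives, 1 of them, without cells of 3 or more Ager UMIs, chosen after seeing the data. TMM scaling moved the median log2 ratio of all genes by -0.43 for P1 against P2 in fat and by -0.42 for lung against fat in P2. It left the signs of the member ratios as they were. Of 96 shares of cells under another thinning or cell class, 51 moved beyond their counting interval. The share of all genes past 4-fold depends on the gene minimum: it was 12.2%, 10.2%, 5.82% and 6.33% at 10 CPM and 6.06%, 6.22%, 3.34% and 3.20% with none, for P1 against P2 in fat and lung and lung against fat in P1 and P2. Depth limits most of all the lung-labelled P1 library, where Prx rests on 2 UMIs. No paired analysis was possible because the labels give no replicate numbers and each group is 1 library.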
